A study of Mus musculus with 15 samples.

Results

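The Fas death receptor pathway was followed in mouse CD8+ T cells through 5 genes, the ligand Fasl, its receptor Fas, the adaptor Fadd, the initiator caspase Casp8 and the caspase-like inhibitor Cflar (c-FLIP). The genes were chosen by name, mapped through GENCODE M21, and are 5 of the 55536 genes with an identifier in the count tables, with 25 annotated transcripts. All 5 were among the 24262 genes that passed the filter on low counts. CD8+ cells of OT-I mice (strain OT-1 Tg C57BL/6J), which carry a transgenic T cell receptor for a peptide of ovalbumin and, in the study's methods, lack Rag1 or Rag2, were transferred into C57BL6/J recipients. Recipients of the Ag group were given the peptide with control IgG, and those of the Ag+Costim group the peptide with agonist antibodies against OX40 (CD134) and 41BB (CD137). Donor CD8+ cells were sorted from spleen and lymph nodes on day 4 of the labels, a time that the methods put slightly earlier. Mice of both sexes and of a range of ages were used in the study, and the age of single animals was not given in the sources used here. There were 5 libraries per group. Counts of the Naive group, from untransferred OT-I mice, were not analysed here. The study's legends count mice in each group and treat each library as its own biological replicate.

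Fas ligand on one cell engages Fas on another, whose cytoplasmic death domain recruits FADD, and FADD in turn gathers procaspase-8 into the death-inducing signalling complex. In that complex caspase-8 cleaves itself and then executioner caspases, or cleaves Bid to open the mitochondrial arm. c-FLIP binds the same complex through death effector domains but has no catalytic activity, and its long and short forms set how much caspase-8 is activated. In CD8+ T cells Fas ligand is a killing molecule as well as a signal for the death of the T cells themselves, and FADD, caspase-8 and c-FLIP are also needed for T cells to expand after priming.

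In Fas and Cflar, the exon structure decides which protein is made. In Fas, a 54-base exon (chromosome 19, 34318783 to 34318836, mm10, plus strand) encodes the membrane-spanning stretch. The transcript Fas-201 contains it and encodes 327 residues, whereas Fas-203 skips it and encodes 309, a receptor without a membrane anchor. Both sequences are shown from 24 bases before the exon to 24 bases after it, from the GENCODE M21 transcripts, with the exon in capitals:
Fas-201: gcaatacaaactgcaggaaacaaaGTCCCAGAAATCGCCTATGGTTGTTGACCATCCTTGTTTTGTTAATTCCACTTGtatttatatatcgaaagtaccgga
Fas-203: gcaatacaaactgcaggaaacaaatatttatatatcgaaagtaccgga

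In Cflar (chromosome 1, plus strand), the long and the short protein part at the end of the exon that ends at position 58732326. Cflar-201 splices there to the next exon and encodes the long form of 481 residues. Cflar-204 reads on into the intron, where its coding sequence stops, and encodes a short form of 215 residues without the caspase-like part. The sequences are shown from 24 bases before the point where they part, and what follows that point is in capitals, the start of the next exon in Cflar-201 and the 33 coding bases of the intron in Cflar-204:
Cflar-201: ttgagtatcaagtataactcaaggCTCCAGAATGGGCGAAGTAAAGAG
Cflar-204: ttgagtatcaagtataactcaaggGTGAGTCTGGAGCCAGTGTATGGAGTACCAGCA

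Casp8 (chromosome 1, plus strand) has an optional exon of 116 bases (58803999 to 58804114) near its 5′ end. Casp8-203 and Casp8-204 contain it and encode 500 residues, whereas Casp8-201 and Casp8-202 span it and encode 480. The start codon of the longer form lies in that exon, and its 32 coding bases are shown in capitals, followed by the first 24 bases of the next exon:
Casp8-204: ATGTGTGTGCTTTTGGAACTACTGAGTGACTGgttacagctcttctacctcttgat

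Deposited values were estimated counts per gene, and levels are given as CPM (counts relative to the scaled total of the library, with TMM factors). Total counts spanned 59.6 to 449.4 M in Ag and 332.3 to 639.1 M in Ag+Costim. Genes with a count numbered 48058, 21779, 51778, 40441 and 20714 in Ag replicates 1 to 5, and 28727 to 30340 in Ag+Costim. The 6 CD8 T cell markers were high in every library (summed level 3122 to 6140 CPM in Ag and 4132 to 5039 CPM in Ag+Costim), and Cd4 was at 5.07 CPM or less. Ag libraries differed more among themselves than Ag+Costim libraries did, with correlations of log2 CPM of 0.773 to 0.968 against 0.956 to 0.961. Ag replicates 1 and 4 stood apart in proliferation, since the 13 cell cycle genes summed to 790 and 842 CPM there, 3928 to 7003 CPM in the other 3 Ag libraries and 6259 to 7793 CPM in Ag+Costim. The 7 B cell markers summed to 1010, 991 and 1225 CPM in Ag replicates 1, 3 and 4, and to between 518 and 771 CPM in the remaining 7 libraries. Ag replicate 3, the library with the fewest counts, also had 1103 CPM on 6 erythroid genes, against 3.8 to 126 CPM elsewhere. Myeloid markers (7 genes) summed to 122 to 301 CPM in Ag and 199 to 289 CPM in Ag+Costim, CD4 T cell markers (4 genes) to 3.74 to 26.4 and 3.16 to 8.20 CPM, and NK cell markers (4 genes) to 2.57 to 22.8 and 1.94 to 4.74 CPM. In these bulk samples fewer cells with a transcript and less of it per cell cannot be told apart.

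None of the 5 genes passed the test for a difference between Ag+Costim and Ag. By edgeR's quasi-likelihood test, 0 of 5 passed a Benjamini-Hochberg (BH) adjusted p of 0.05, where 0.0% of all genes tested did, and 1 of 5 (Fadd) had an unadjusted p under 0.05, where 18.6% of all genes did. DESeq2 also called 0 of 5, against 22.3% of all genes. limma voom, with each library given a quality weight, called 4 of 5, against 52.2% of all genes, and gave Ag replicates 1 and 4 weights of 1.42 and 2.00, replicate 3 0.508, and replicates 2 and 5 weights of 0.0986 and 0.0656. That fit placed Fasl (log2 fold change 1.22, BH 8.3e-04), Fas (0.58, BH 0.0090) and Fadd (0.44, BH 0.0199) higher and Cflar (-0.46, BH 0.0085) lower in Ag+Costim. Its highest Ag weights were thus on the 2 libraries with the lowest cell cycle levels, and its calls were not tested without them. With Ag replicates 1 and 4 both left out, an alternative chosen after their levels were seen, edgeR again called 0 of 5, and 0.0% of all genes tested.

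**Figure D1:**
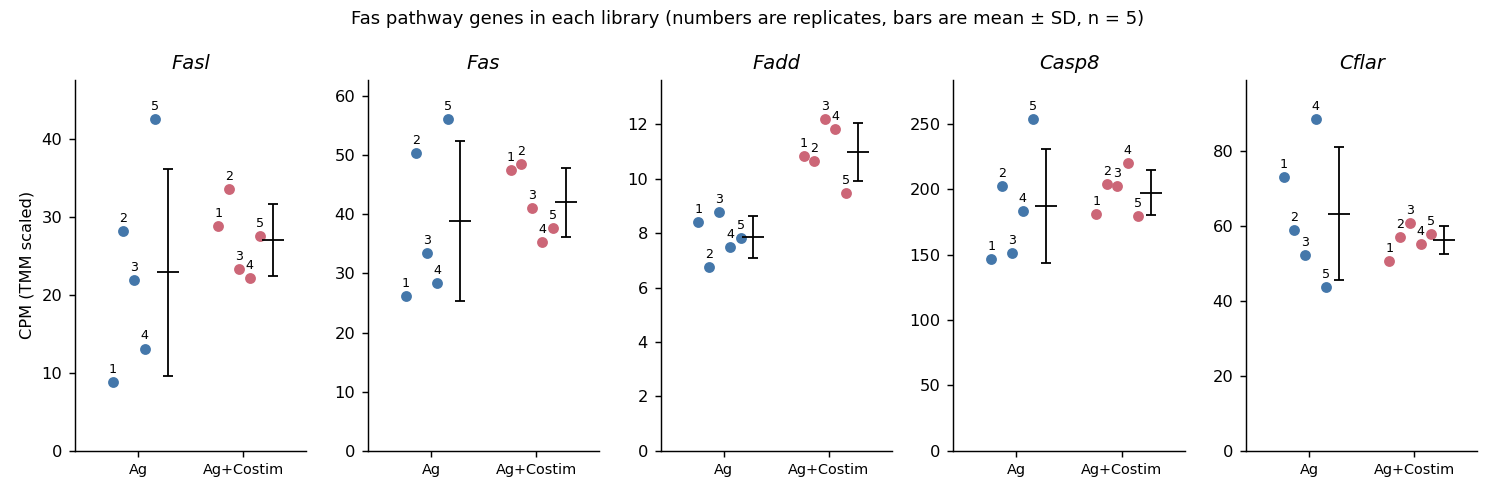
Level of the 5 genes in each library, in TMM-scaled CPM on a linear axis from 0. Numbered points are replicates, and the bars give the mean ± SD of 5 libraries. Only the Fadd groups are apart (6.76 to 8.78 CPM in Ag and 9.47 to 12.2 CPM in Ag+Costim), while for the other 4 genes the Ag libraries spread to both sides of the Ag+Costim libraries.

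Fasl (ENSMUSG00000000817.10, chromosome 1, 161780689 to 161788495, minus strand), the ligand, was at 8.82, 28.2, 21.9, 13.1 and 42.5 CPM in Ag replicates 1 to 5. In Ag+Costim it was at 28.9, 33.6, 23.3, 22.2 and 27.6 CPM. The highest and the lowest library were both in Ag, so the groups overlapped. The means were 22.9 ± 13.3 and 27.1 ± 4.59 CPM (SD, n = 5 per group). In edgeR the log2 fold change was 0.24 (SE 0.36, BH 0.678), and 2 SE to each side spanned -0.48 to 0.97. Within Ag, the highest library was 4.82 times the lowest, the widest range among the 5 genes, and within Ag+Costim 1.52 times. Without Ag replicates 1 and 4 the log2 fold change was -0.18 (SE 0.23, BH 0.690).

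Fas (ENSMUSG00000024778.13, chromosome 19, 34290666 to 34327772, plus strand), the receptor, was at 26.3, 50.5, 33.5, 28.3 and 56.0 CPM in Ag. In Ag+Costim it was at 47.5, 48.4, 41.1, 35.4 and 37.7 CPM. As for the ligand, Ag replicates 1 and 4 were the lowest of all libraries and Ag replicate 5 the highest. For Fas this order held in TMM-scaled CPM and not per transcript length without TMM factors. The means were 38.9 ± 13.5 and 42.0 ± 5.81 CPM (SD, n = 5 per group), a log2 fold change of 0.11 (SE 0.23, BH 0.767, edgeR) with 2 SE spanning -0.34 to 0.56. Its sign was not stable, being -0.09 with total counts and -0.14 without Ag replicates 1 and 4.

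Fadd (ENSMUSG00000031077.7, chromosome 7, 144577318 to 144582463, minus strand), the adaptor that joins receptor and caspase, was at 8.41, 6.76, 8.78, 7.51 and 7.83 CPM in Ag. In Ag+Costim it was at 10.8, 10.7, 12.2, 11.8 and 9.47 CPM. The lowest Ag+Costim library was thus above the highest Ag library, a separation upward that 4.48% of all genes tested had. None of the 5 genes separated downward, as 1.13% of all genes did, and 5.6% of all genes separated in either direction. Fadd had a mean just under 10 CPM, and of the 4 genes above that mean 0 separated upward, against 11.3% of the genes above it. The means were 7.86 ± 0.786 and 11 ± 1.07 CPM (SD, n = 5 per group), which made a log2 fold change of 0.49 (SE 0.14). The unadjusted p was 0.0053 and the BH value 0.201 in edgeR, so the difference did not pass the adjustment, and DESeq2 gave 0.35 with an adjusted p of 0.0597. The separation depended on the scaling, since the groups overlapped when DESeq2 size factors, the upper quartile or plain totals were used instead (log2 fold changes 0.34, 0.23 and 0.18 in edgeR). In TMM-scaled CPM, Fadd was the one gene of the 5 whose level in Ag replicates 1 and 4 lay among those of the other Ag libraries. Without Ag replicates 1 and 4 its log2 fold change was 0.51 (SE 0.14, BH 0.202). A noncoding gene on the opposite strand, Faddos, overlaps it and held 1065 counts over all libraries, against 34669 for Fadd.

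Casp8 (ENSMUSG00000026029.14, chromosome 1, 58795374 to 58847503, plus strand), the initiator caspase, was at 146, 202, 151, 183 and 253 CPM in Ag. In Ag+Costim it was at 181, 204, 202, 220 and 180 CPM. The Ag+Costim libraries lay within the range of the Ag libraries. The means were 187 ± 43.6 and 197 ± 17.0 CPM (SD, n = 5 per group), a log2 fold change of 0.08 (SE 0.17, BH 0.787, edgeR) with 2 SE spanning -0.27 to 0.42. The value turned to -0.16 with total counts.

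Cflar (ENSMUSG00000026031.15, chromosome 1, 58711508 to 58758884, plus strand), the inhibitor and a neighbour of Casp8 on the chromosome, was at 73.2, 59.1, 52.3, 88.5 and 43.7 CPM in Ag. In Ag+Costim it was at 50.7, 57.0, 60.9, 55.3 and 57.8 CPM. Its order was the reverse of that of Fas and Fasl, with Ag replicates 4 and 1 the highest of the 10 libraries and Ag replicate 5 the lowest. The means were 63.3 ± 17.7 and 56.3 ± 3.72 CPM (SD, n = 5 per group), a log2 fold change of -0.17 (SE 0.18, BH 0.566, edgeR) with 2 SE spanning -0.54 to 0.20. Its sign turned with no filter on low counts (0.13) and without Ag replicates 1 and 4 (0.14).

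Directions depended on a general shift between the groups. For the 8626 genes whose mean level reached 10 CPM, the median log2 fold change was 0.24 under TMM scaling. It was 0.12 under DESeq2 size factors, 0.02 under the upper quartile and 0.00 under totals. Relative to it, the 5 genes kept their places. Cflar lay below the median by 0.41 to 0.51 on the log2 scale in the 4 scalings, Casp8 by 0.16 and Fas by 0.09 to 0.13. Fadd lay above it by 0.18 to 0.25 and Fasl by 0.00 to 0.09. Without Ag replicates 1 and 4 the distance was -0.01 for Cflar and -0.33 for Fasl. The median of the 5 genes under TMM was 0.11, below the 0.24 of the genes at 10 CPM or more and above the -0.32 of all genes tested.

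In 3 of the 5 genes the Ag libraries with the lowest cell cycle levels lay at one end of the range in TMM-scaled CPM. Per transcript length and without TMM factors this did not hold for Fas. Mean log2 CPM of the 13 cell cycle genes was 5.62 and 5.73 in Ag replicates 1 and 4, 8.02 in replicate 3, 8.75 and 8.81 in replicates 2 and 5, and 8.71 to 9.01 in Ag+Costim. In TMM-scaled CPM, Fasl and Fas were lowest, and Cflar highest, in replicates 1 and 4. Casp8 was at 146 and 183 CPM there, and Fadd at 8.41 and 7.51 CPM, in neither case set apart from the remaining Ag libraries in this scaling. Per transcript length and without TMM factors, Casp8 was highest in these 2 libraries. B cell markers were also high in these 2 libraries, and the part of other cells in the levels was not tested.

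**Figure D2:**
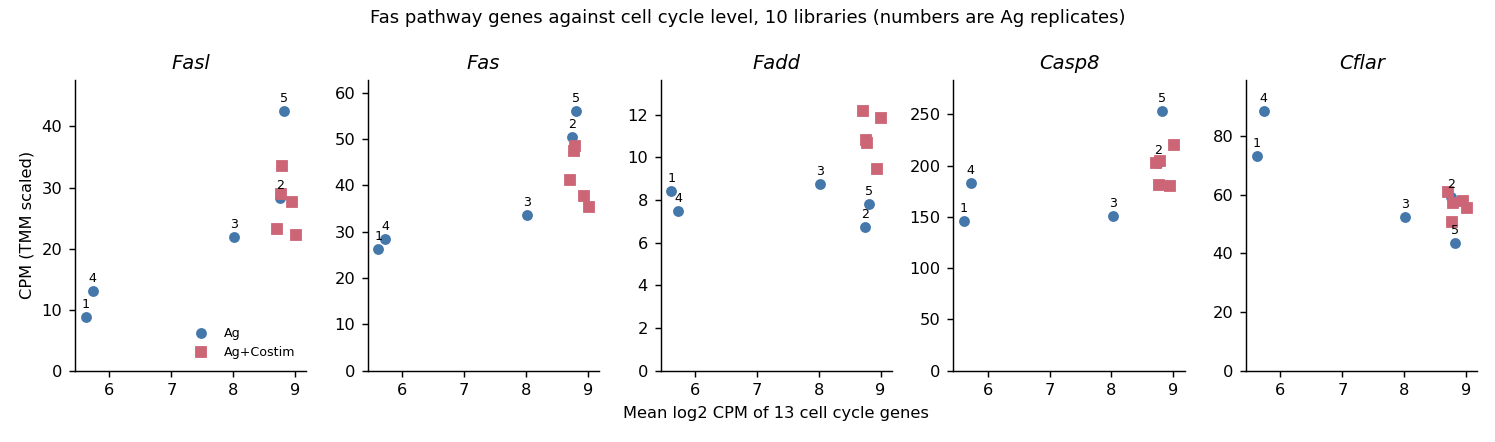
Level of each gene in TMM-scaled CPM (linear axis from 0) against the mean log2 CPM of 13 cell cycle genes in the same library, with circles for Ag (replicate numbers shown) and squares for Ag+Costim. Ag replicates 1 and 4, at 5.62 and 5.73, are apart from the other libraries, with the lowest Fasl and Fas and the highest Cflar.

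Levels of different genes were compared per length, as TPM (counts per transcript length, relative to their sum in the library) computed from the transcript counts. Casp8 was the most abundant at 145 ± 20.7 TPM in Ag and 137 ± 10.5 TPM in Ag+Costim. Cflar (55.8 ± 20.9 and 43.3 ± 2.81 TPM) and Fas (44.3 ± 4.51 and 45.3 ± 6.53 TPM) followed and did not differ beyond their spread. Fasl was at 18.4 ± 6.57 and 21.4 ± 3.83 TPM, and Fadd was the scarcest at 3.55 ± 1.04 and 4.30 ± 0.378 TPM (SD, n = 5 per group throughout). The order of the other genes held in each library, apart from Cflar and Fas, which changed places. Thus, Casp8 exceeded Fadd by 43.2 ± 10.9 times in Ag and 31.9 ± 1.94 times in Ag+Costim, both per length. For Fas, Casp8 and Fadd, Ag replicates 1 and 4 were placed otherwise in TPM than in TMM-scaled CPM. TPM differs from that measure in length and also in scaling, since it carries no TMM factor. That factor was 1.396 and 1.247 in Ag replicates 1 and 4, and 1.212 in replicate 3. It was 0.9071 and 0.8261 in Ag replicates 2 and 5, and 0.8878 to 0.9302 in Ag+Costim. Whether length or scaling moved these placements was not tested. Fas was lowest in Ag+Costim replicate 4 (37.5 TPM), with 40.4 and 40.2 TPM in Ag replicates 1 and 4. Its highest level was in Ag+Costim replicate 2 (52.4 TPM). Casp8 was highest in Ag replicates 4 and 1 (177 and 154 TPM, against 126 to 150 TPM elsewhere). Fadd was at 4.74 and 3.92 TPM in Ag replicates 1 and 4, and at 2.44 to 4.17 TPM in the other Ag libraries.

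Ratios within a library do not depend on the scaling between libraries, and were used to compare inhibitor with caspase and ligand with receptor. The log2 ratio of Cflar to Casp8 counts was -1.0, -1.78, -1.53, -1.05 and -2.54 in Ag and -1.84, -1.84, -1.73, -1.99 and -1.64 in Ag+Costim. Ag libraries lay on both sides of the Ag+Costim libraries, with the most inhibitor per caspase in replicates 1 and 4 and the least in replicate 5. The means were -1.58 ± 0.63 and -1.81 ± 0.13 (SD, n = 5 per group), and the difference of -0.23 was within the spread (two-sided exact permutation p = 0.405, BH over the 4 values tested in this way 0.804). Without Ag replicate 5 it was -0.47 (exact permutation p = 0.0476), and without Ag replicates 1 and 4 it was 0.14 (exact permutation p = 0.679).

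The log2 ratio of Fasl to Fas was -1.57, -0.84, -0.61, -1.11 and -0.40 in Ag and -0.72, -0.53, -0.82, -0.68 and -0.45 in Ag+Costim. Ligand was thus below receptor in every library, and least so in Ag replicate 5. The means were -0.91 ± 0.46 and -0.64 ± 0.15 (SD, n = 5 per group), a difference of 0.27 that was within the spread (two-sided exact permutation p = 0.270, BH 0.804). Without Ag replicates 1 and 4 the difference was -0.02 (exact permutation p = 0.893). The smallest p that 5 against 5 libraries can give is 0.0079.

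Fas transcripts were examined to ask whether the membrane-spanning exon was skipped more often in either group. Of the counts on transcripts that contain or span the exon, 100% contained it in 8 of the 10 libraries, 90.4% in Ag replicate 5 and 87.2% in Ag+Costim replicate 1. By these estimated counts, skipping was therefore seen in 1 library of each group. The means were 98.1 ± 4.27% and 97.4 ± 5.72% (SD, n = 5 per group), with a difference of -0.645 percentage points (two-sided exact permutation p = 1.0, the largest possible). With 8 of the 10 values tied at 100% and 1 lower value in each group, this test could hardly give a small p. It does not decide whether skipping differed between the groups. Fas-203, the transcript whose junction is printed above, held 1929 and 1805 estimated counts in those 2 libraries and 0 in the others. In the PSI table (percent spliced in, a fraction per group that the authors obtained with Whippet, without replicates), the same exon was at 0.998 in Ag and 0.993 in Ag+Costim. Inclusion by PSI was thus above the mean from transcript counts in both groups. With 1 value per group, PSI cannot show whether skipping was confined to those 2 libraries.

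Fas-201, the membrane form, held 89.9, 90.1, 69.8, 86.3 and 52.5% of Fas counts in Ag and 45.0, 85.1, 77.5, 86.3 and 68.8% in Ag+Costim. The rest was mostly Fas-204, a transcript annotated as a target of nonsense-mediated decay, with 7.69, 7.08, 27.6, 11.4 and 35.2% in Ag and 38.9, 12.2, 18.8, 10.5 and 27.9% in Ag+Costim. The share of Fas-204 was highest in the same 2 libraries that held Fas-203. Fas-204 differs from Fas-201 by an added exon of 158 bases (chromosome 19, 34310012 to 34310169), for which the PSI table held 0 entries. Group means overlapped widely (17.8 ± 12.8% and 21.7 ± 11.8% for Fas-204, SD, n = 5 per group). Fas-202, which ends early and encodes 63 residues, held 1.25 ± 0.533 and 1.6 ± 0.427% of the counts, while the PSI of its last exon was 0.104 in Ag and 0.112 in Ag+Costim.

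**Figure D3:**
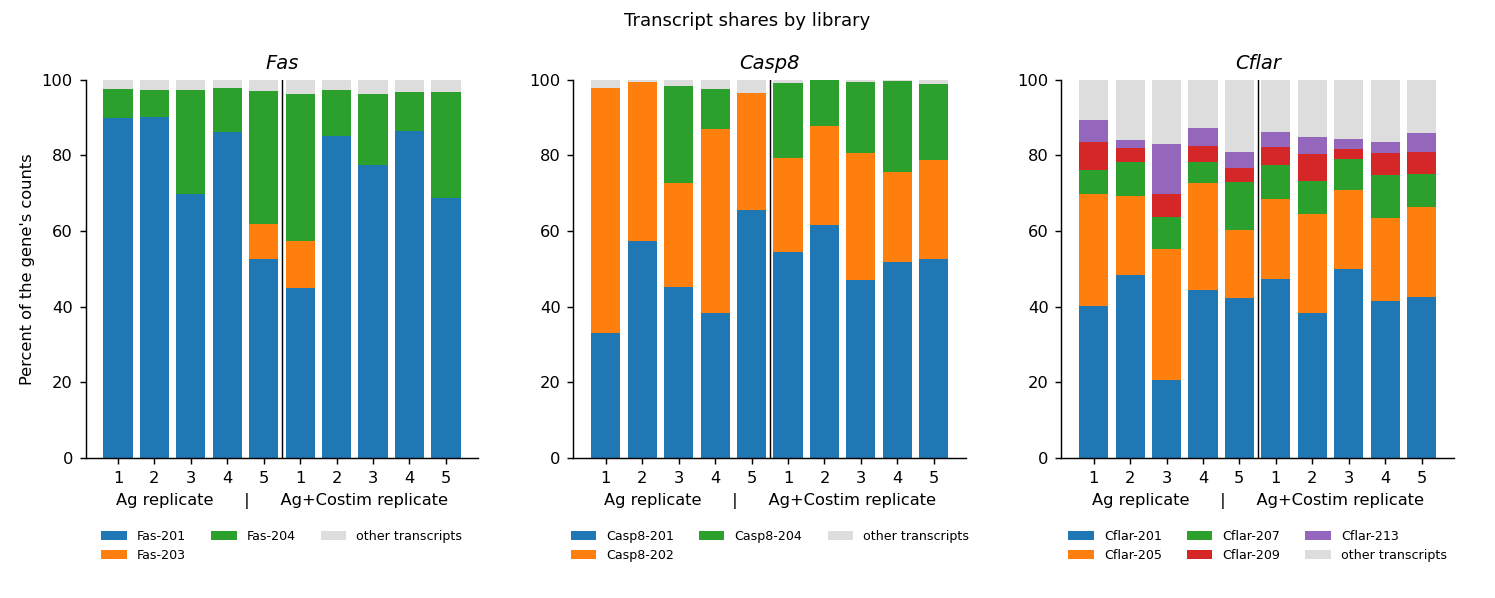
Share of each gene's estimated counts on its transcripts, in percent, for every library, with transcripts under 5% in both groups pooled in grey except Fas-203. Fas-203 appears in Ag replicate 5 and Ag+Costim replicate 1 alone, and Casp8-204 is absent from Ag replicates 1, 2 and 5 and present in all Ag+Costim libraries.

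Casp8 counts divided mainly between Casp8-201, from the upstream start site, and Casp8-202, from the downstream one. Casp8-201 held 33.1, 57.4, 45.2, 38.2 and 65.6% in Ag and 54.6, 61.6, 46.9, 51.9 and 52.7% in Ag+Costim. Casp8-202 held 64.7, 42.0, 27.6, 48.9 and 31.0% in Ag and 24.8, 26.1, 33.8, 23.7 and 26.0% in Ag+Costim. Casp8-202 was thus highest in Ag replicates 1 and 4, and Ag replicates 3 and 5 lay within the Ag+Costim range. Casp8-204, which shares the upstream start and carries the optional exon, held 0% in Ag replicates 1, 2 and 5, 25.7% in replicate 3, 10.5% in replicate 4, and 12.3 to 24% in Ag+Costim. Counted by start site, the upstream transcripts held 33.1, 57.4, 70.8, 48.7 and 65.6% in Ag (mean 55.1 ± 14.9%). In Ag+Costim they held 65.5 to 75.9% (mean 72.5 ± 4.05%, SD, n = 5). The groups overlapped through Ag replicates 3 and 5.

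The transcript counts and the PSI table differed for the optional Casp8 exon. From transcript counts its inclusion in Ag was 9.27 ± 11.1% and that in Ag+Costim 19.6 ± 4.49% (SD, 5 libraries each), whereas the PSI was 0.0230 and 0.0150. The direction was opposite and the level lower in the second measure, so no change of the longer caspase form is stated here. A similar gap was found in Cflar for an 89-base exon upstream of the coding sequence (chromosome 1, 58713571 to 58713659), at 71.6 ± 8.67% and 76.3 ± 2.53% from transcript counts and at 0.997 and 0.998 by PSI. For the 106-base exon within the coding sequence of Cflar (chromosome 1, 58729056 to 58729161), the measures were near each other, at 92.8 ± 2.38% and 91.9 ± 1.97% from transcript counts (SD, n = 5 per group) and 0.90 and 0.896 by PSI.

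Cflar is annotated with 13 transcripts, of which 4 are protein coding. Among the counts on those 4, the long form (Cflar-201, Cflar-205 and Cflar-202) held 96.2, 91.2, 91.6, 96.6 and 93.1% in Ag and 94.5, 92.8, 94.2, 91.1 and 93.0% in Ag+Costim. The short form Cflar-204 made up the rest, and was smallest in Ag replicates 1 and 4. These are shares of counts and not per length. Cflar-204 has 2010 bases, against 3163 in Cflar-201 and 6572 in Cflar-205, so its share per length is larger than its share of counts. The long share was 93.7 ± 2.53% and 93.1 ± 1.36% (SD, n = 5 per group), a difference of -0.643 percentage points (two-sided exact permutation p = 0.603, BH 0.804). Per base of transcript length the difference was -0.645 percentage points (exact permutation p = 0.810). With all 13 transcripts in the denominator the difference was 1.54 percentage points (exact permutation p = 0.659). Of all Cflar counts, Cflar-201 held 39.2 ± 10.8 and 43.9 ± 4.68%, and Cflar-205, the same protein with a longer 3′ end, 26.3 ± 6.78 and 22.7 ± 2.24% in Ag and Ag+Costim. The noncoding Cflar-207 held 8.42 ± 2.86 and 9.30 ± 1.19%, Cflar-209 5.07 ± 1.66 and 5.21 ± 1.74%, and the retained intron Cflar-213 5.99 ± 4.30 and 3.83 ± 1.0%. Ag replicate 3 differed from the rest, with 20.7% on Cflar-201 and 13.3% on Cflar-213. The remaining 8 transcripts each held under 5% in both groups.

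Transcript usage was tested across 10441 genes with edgeR's diffSpliceDGE. Fadd has 1 transcript and Fasl-202 held 5 counts in all, so that Fas, Casp8 and Cflar could be tested. None of these 3 was called (BH 1.0 for each), where 0.431% of all genes were, and 0 of the 3 had an unadjusted p under 0.05, where 6.42% of all genes did. limma's diffSplice called Casp8 (BH 1.4e-04), where it called 2.39% of all genes, and gave Cflar a BH of 0.0531 and Fas one of 0.845.

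The PSI table held 49 events of 4 of the genes and no entry for Fadd. PSI differed by more than 0.05 between the groups in 4 of these 49 (8.16%), against 11.9% of all 138940 events, and there is no replicate check on these values. All 4 lay at gene ends. The distal end of Fasl (chromosome 1, 161780689 to 161781421) was at 0.909 in Ag and 0.965 in Ag+Costim, and its proximal end (161781422 to 161781791) at 0.0907 and 0.0346. In Casp8, the first part of the upstream start exon (58795374 to 58795476) was at 0.0669 in Ag and 0.00864 in Ag+Costim, and the start just after it (58795477 to 58795738) at 0.933 and 0.991. Core exons, those with a splice site at either side, differed by 0.00796 at most, and 23 of 26 were above 0.98 in both groups. No event of Fas differed by more than 0.00773, and none of Cflar by more than 0.0383, the latter for its most distal end (0.165 in Ag and 0.127 in Ag+Costim).

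**Figure D4:**
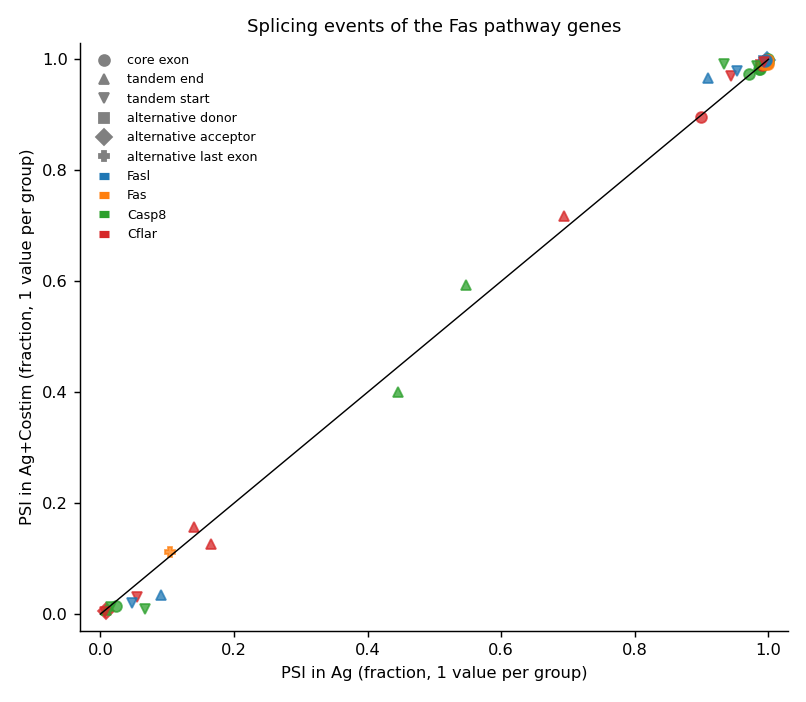
PSI of the 49 splicing, start and end events of Fasl, Fas, Casp8 and Cflar in Ag+Costim against Ag, as fractions with 1 pooled value per group and the line of equality. The points keep close to the line, and the 4 that differ by more than 0.05 are tandem starts of Casp8 and tandem ends of Fasl.

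The wider death receptor pathway was taken as a list of 41 genes, all of which passed the filter. By edgeR 0 of the 41 passed the BH threshold, where 0.0% of all genes did. At an unadjusted p under 0.05, 7 were higher (7.89% of all genes were) and 3 were lower (10.7% of all genes were). Most of the list was well expressed, and 34 of its genes had a mean level of at least 10 CPM. Among these, 7 were higher and 1 was lower at that p, against 20.2% and 2.82% of all genes at that level. The median log2 fold change was 0.17, with 29 genes above 0 and 12 below, and it turned to -0.09 with total counts (18 above 0) and to -0.05 with the upper quartile (19 above 0). Relative to the median of the genes at 10 CPM or more, 17 or 18 of the 41 lay above in all 4 scalings. DESeq2 called 4 of the 41, among them Xiap, Lta and Tnfsf15, each lower, where it called 22.3% of all genes. Weighted limma voom called 18 higher and 4 lower, where it called 52.2% of all genes in either direction and 25.8% of all genes higher. Lta, a lymphotoxin (log2 fold change -0.64, SE 0.27, BH 0.266), and Tnfsf15, at 4.85 CPM in Ag replicate 3 and 0.554 CPM or less elsewhere, were picked after their values were seen.

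Among the other ligands and receptors, Tnfsf10 (TRAIL) had a log2 fold change of -0.11 (SE 0.19) and Tnf one of 0.07 (SE 0.20), at 7.99 and 8.18 CPM in Ag. The TRAIL receptor Tnfrsf10b was low (2.07 ± 1.18 and 1.42 ± 0.344 CPM). The TNF receptor Tnfrsf1a was at 24.3 ± 7.10 and 24 ± 1.77 CPM (SD, n = 5 per group), a log2 fold change of -0.02 (SE 0.18). None of the 4 other ligands and 4 other receptors passed the adjusted test in edgeR, while DESeq2 called 2 ligands lower and weighted limma voom 2 ligands and 1 receptor lower and 1 receptor higher. Of all genes, DESeq2 called 22.3% and weighted limma voom 52.2%, and the latter called 25.8% of all genes higher. The ligands all lay below the median of the genes at 10 CPM or more in the 4 scalings, as did 3 of the 4 receptors.

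All 6 other adaptors and kinases had a log2 fold change above 0 in each of the 4 scalings, with a median of 0.36 in TMM and 0.08 with total counts. None passed the adjusted test in edgeR or DESeq2, which called 0.0% and 22.3% of all genes. Weighted limma voom called 5 higher, where it called 25.8% of all genes higher. Ripk1, a kinase that binds FADD and caspase-8, was at 87.7 ± 10.1 and 109 ± 10.4 CPM (log2 fold change 0.31, SE 0.13, BH 0.265), and Ripk3, which caspase-8 restrains in necroptosis, at 110 ± 56.7 and 143 ± 12.5 CPM (0.38, SE 0.31, BH 0.450). Ripk3 was at 58.2 and 63.4 CPM in Ag replicates 1 and 4, and at 87.7 to 183 CPM in the other Ag libraries. It thus had its lowest levels in the libraries that had the lowest Fas and Fasl in TMM-scaled CPM.

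Of the 10 ubiquitin enzymes and editors, 6 lay above 0 with TMM and 2 with total counts, and 2 lay above the median of the genes at 10 CPM or more in each scaling. Above that median were 5 of the 10 without Ag replicate 4 and 8 without Ag replicates 1 and 4. The inhibitors of apoptosis Birc2 (0.04, SE 0.22) and Birc3 (-0.02, SE 0.20) were near 0 in log2 fold change with TMM, and at -0.31 and -0.36 with total counts. Xiap, which blocks executioner caspases, was at 21.9, 16.1, 15.4, 25.8 and 17.0 CPM in Ag and 15.3, 14.6, 15.0, 14.4 and 15.4 CPM in Ag+Costim. All but one Ag library lay above all Ag+Costim libraries, and Ag replicate 3 lay just under the highest of them. The log2 fold change was -0.37 (SE 0.16, unadjusted p 0.0445, BH 0.268 in edgeR), and -0.10 (BH 0.575) without Ag replicates 1 and 4.

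All 6 genes of the mitochondrial arm had a log2 fold change above 0 with TMM, with a median of 0.42, but with total counts Diablo (-0.13) and Casp9 (-0.078) lay below 0, Diablo also with DESeq2 size factors (-0.0044) and the upper quartile (-0.10). None passed the adjusted test in edgeR or DESeq2, which called 0.0% and 22.3% of all genes. Weighted limma voom called 4 higher, where it called 25.8% of all genes higher. Bid, the caspase-8 substrate that links the receptor to mitochondria, was at 37.3, 65.9, 30.8, 42.1 and 62.9 CPM in Ag and 64.1 to 69.2 CPM in Ag+Costim. Ag replicate 2 lay within the Ag+Costim range, Ag replicate 5 just under it and the other 3 further below, and the log2 fold change was 0.50 (SE 0.21, BH 0.264). The log2 fold changes were 0.51 (SE 0.46) for Cycs and 0.48 (SE 0.26) for Htra2, both named after their values were seen, 0.12 (SE 0.16) for Diablo, an antagonist of XIAP, 0.36 (SE 0.22) for the apoptosome scaffold Apaf1 and 0.27 (SE 0.19) for its caspase Casp9. Ripk1, Bid and Htra2 overlap genes on the opposite strand, among them Serpinb6a, Bcl2l13 and Aup1, and the library kit does not mark strand. Aup1 held 608425 counts over all libraries, against 197332 for Htra2. Diablo, Casp9 and Apaf1 overlap opposite-strand genes that each held 902 counts or fewer.

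Casp6, an executioner caspase, had a log2 fold change of -0.07 (SE 0.16). Parp1, a nuclear substrate of executioner caspases and a DNA repair enzyme, was the 1 gene of the 41 whose groups did not overlap (5.6% of all genes, and upward 11.3% of those at 10 CPM or more), at 73.0 to 204 CPM in Ag and 210 to 275 CPM in Ag+Costim (log2 fold change 0.76, SE 0.27, BH 0.245), and they overlapped with total counts and the upper quartile. The groups of Casp6 (lower) were apart with total counts, and those of Xiap (lower) with DESeq2 size factors and the upper quartile. Of the other modulators of Fas, Faim, an inhibitor of Fas-induced death, had 0.22 (SE 0.20) and Ptpn13, a phosphatase first described as bound to Fas in human cells, -0.20 (SE 0.30).

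**Figure D5:**
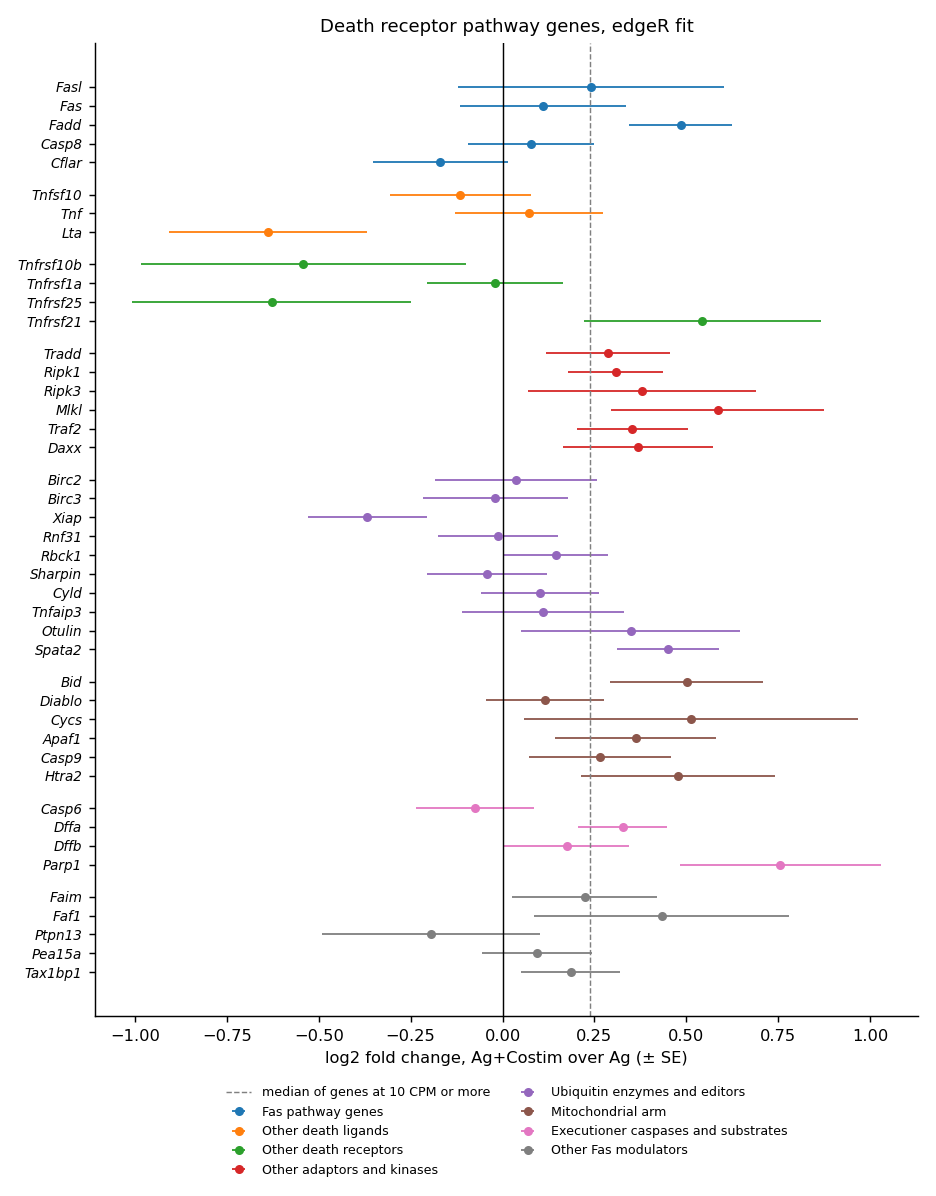
log2 fold change of Ag+Costim over Ag with its SE (edgeR, n = 5 per group) for the 5 Fas pathway genes and most genes of the wider list, coloured by role. Tnfsf15 (-4.61, SE 1.97) is off the scale and not drawn. The dashed line is the median of genes at 10 CPM or more (0.24), and all adaptors and mitochondrial genes lie above 0 in this TMM scaling, whereas Diablo lies below 0 in the other 3 scalings and Casp9 with total counts.

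Genes with the pattern most like each of the 5 were looked up among the 8626 genes at 10 CPM or more, by Pearson's r of log2 CPM over the 10 libraries. These are descriptions, since the libraries share scaling and the differences among Ag libraries. Nearest to Fasl were Plac8 (0.97), Kremen2 (0.97) and Sh2d1a (0.97), and nearest to Fas were Borcs7 (0.98), Klrd1 (0.97) and Trappc1 (0.97). Casp8 was nearest to Fam173b (0.97), Igbp1 (0.96) and Mtg2 (0.95), and Cflar to Pcmtd2 (0.99), Rbm33 (0.98) and Xpc (0.97). For Fadd these were Dolk (0.93), Zc3h10 (0.93) and Insig1 (0.92). Among the 5 genes themselves, r was 0.93 for Fas with Fasl, -0.82 for Cflar with Fasl, -0.75 for Cflar with Fas and -0.45 for Cflar with Casp8, whereas Fadd had 0.05 with Fas and 0.16 with Fasl.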

How the data were processed

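RNA of sorted CD8+ cells was sequenced with an ultra-low input kit that does not mark strand. The authors aligned reads to mm10 with HISAT2 2.1.0, used SAMtools 1.9 for sorting, and estimated genes and transcripts by StringTie 2.1.0. What was deposited is a table of estimated counts, whole numbers that the authors derived from coverage, so totals are not reads, and no normalization had been applied. The deposited PSI table from Whippet gives 1 fraction per group and event, and its columns of the PSI difference, probability and entropy, the authors' own comparison, were not used. Rows identified by a bare number (26248 rows, 0.0458 to 0.308% of counts) and spike-in rows were left out.

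Counts were fitted with edgeR 4.0.16 (TMM, filterByExpr, robust quasi-likelihood, BH over all genes) in R 4.3.3, after tests on simulated data. DESeq2 1.42.0 and limma 3.58.1 were alternatives. Usage was tested with diffSpliceDGE. Single values were compared by exact permutation (scipy 1.17.1). log2 CPM used a prior count of 2. The 5 genes and the lists were chosen with earlier results of these data known. By rule, all 5 genes, 18 wider genes, any wider gene called or without overlap, and the 3 genes most like each of the 5 were named, apart from some genes that are not reported here. Fits with other scalings, no filter, a replicate block or each library left out were also made. P-values measure the spread between these libraries only.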

Additional observations from a re-analysis of the deposited data

Results flagged for a closer look

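A sample far from the others of its group was looked for in 39 groups of 5 values (levels, ratios, shares), and chance alone marks about 1 in 20 such groups. That rate does not hold where the other 4 values are tied, as for the Fas exon and Fasl-201. There any value off the tie is marked, however small the difference. From transcript counts, inclusion of the Fas transmembrane exon was 90.4% in Ag replicate 5 and 87.2% in Ag+Costim replicate 1, with 100% in the other 4 libraries of each group. Casp8-202 held 33.8% of Casp8 counts in Ag+Costim replicate 3, against 23.7 to 26.1% in the other 4 Ag+Costim libraries. Fasl-201 held 99.9% of Fasl counts in Ag+Costim replicate 4 and 100% elsewhere, a difference of 5 counts on Fasl-202.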

How the results depend on the processing

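The count of the 5 genes called was 0 in edgeR under each scaling, with no filter, with the replicate block and without each library (0 to 0), 0 in DESeq2 and 4 in weighted limma voom, which called 22.3% and 52.2% of all genes. Each of those edgeR fits called 0.0% of all genes tested, so a count of 0 there is not particular to the 5 genes. For the wider list the count was 0 in those edgeR fits (0 to 0 without each library), 4 in DESeq2 and 22 in weighted limma voom, beside the same shares of all genes. For transcript usage it was 0 (0 to 0) in diffSpliceDGE and 1 in limma's diffSplice, which called 0.431% and 2.39% of all genes. The cause of these differences was not tested. Weighted limma voom gave log2 fold changes of 1.22, 0.58, 0.44 and -0.46 for Fasl, Fas, Fadd and Cflar.

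Signs reversed as follows. The log2 fold change of Fas was -0.0011 under DESeq2 size factors, -0.092 under totals and -0.10 under the upper quartile. That of Casp8 was -0.045, -0.16 and -0.14 in the same order and -0.038 in DESeq2, and that of Cflar was 0.13 with no filter. With Ag replicates 1 and 4 both left out, a choice made after seeing the data, the values were -0.18 for Fasl, -0.14 for Fas, -0.025 for Casp8, 0.14 for Cflar, 0.14 for the log2 ratio of Cflar to Casp8, -0.021 for that of Fasl to Fas, 0.629 percentage points for the Fas exon and 1.13 for the long Cflar share. The long Cflar share differed by 1.54 points with all transcripts in the denominator. Without each library in turn, the log2 ratio of Cflar to Casp8 ranged from -0.47 (without Ag replicate 5, exact permutation p = 0.0476) to -0.085, that of Fasl to Fas from 0.10 to 0.40, the Fas exon from -2.56 to 1.91 points (without Ag+Costim replicate 1) and the Cflar share from -1.28 to 0.0699 points (without Ag replicate 4).

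Same-numbered libraries did not pair (correlations of deviations -0.100 to 0.113, and 1 of 5 correlated best with its own number). With the replicate block the log2 fold changes were 0.43 for Fasl, 0.17 for Fas, 0.49 for Fadd, 0.10 for Casp8 and -0.13 for Cflar, and no call changed.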
